A study of Mus musculus with 8 samples.

Results

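The RNA levels of 9 genes of type I interferon signalling were examined in the mouse line C3H10T1/2, mesenchymal stem cells that become fat cells when they are given adipogenic hormones. The genes were taken by symbol, with earlier results of these data known, and they are 9 of the 41325 gene symbols in the expression tables. They encode both receptor chains (*Ifnar1* and *Ifnar2*), both receptor-bound kinases (*Jak1* and *Tyk2*), a signal transducer (*Stat2*) and 4 interferon regulatory factors (*Irf1*, *Irf3*, *Irf7* and *Irf9*). All of the 9 passed an RPKM of 1 in the shControl library of day 0. RPKM is the number of reads on a gene per kilobase of exon, scaled to the mapped reads of the library.

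Type I interferons bind a surface receptor made of IFNAR1 and IFNAR2. The kinases TYK2 and JAK1 sit on the inner ends of these chains and phosphorylate STAT2. Phosphorylated STAT2 acts with IRF9 in the complex ISGF3, which binds the interferon-stimulated response element (ISRE) in front of target genes. The gamma-activated sequence (GAS) is another element found in front of interferon-responsive genes. IRF3 and IRF7 act before the receptor, since they switch on the interferon genes after a cell has sensed foreign nucleic acid. *Irf7*, *Irf9* and *Stat2* are themselves known interferon-stimulated genes. *Irf1* is likewise known to be induced by interferons.

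The cells carried short hairpin RNAs against *Kdm4d* (shKDM4D), *Nfib* (shNFIB) or *Kmt2a*, the gene of MLL1 (shMLL1), and shControl cells, whose genotype is given as WT, served as the control. RNA was taken from each line at day 0, when the cells were past confluence and had not yet received hormones, and at day 5 of differentiation. Insulin, dexamethasone and isobutylmethylxanthine were given until day 2, insulin alone until day 4 and serum-containing medium after that, in every line. The study compared the lines to learn how far the 3 targets act on the same genes in fat cell differentiation. According to the methods, the knockdown lines came from puromycin-selected clones transfected with pLKO.1 hairpin vectors. The labels do not say which clone was sequenced, so a difference between lines cannot be told apart from a difference between clones. There is 1 library for each line and day, 8 in all. No spread between replicates can be estimated, no test was run, and the 95% intervals (exact, Clopper-Pearson) on reads recovered from the RPKM values cover counting error only.

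The 8 libraries held between 15842000 and 38201900 mapped reads. *Nfib* was 4.29 and 5.04 times lower in shNFIB than in shControl cells at day 0 and day 5, and *Kmt2a* was 2.58 and 3.24 times lower in shMLL1 cells, whereas *Kdm4d* had at most 15 reads in any library and its knockdown could be checked only weakly. The summed RPKM of 7 adipocyte markers went from 0.702 to 796 in shControl cells and reached only 25.5 with shKDM4D, 0.936 with shNFIB and 2.86 with shMLL1. The summed level of 8 mesenchymal markers lay between 2192 and 3639, but *Thy1* was at 0.139 or below in the 4 shKDM4D and shNFIB libraries, against 11.1 to 25.0 in the others. Of 7 macrophage and blood markers, 1 or 2 were above an RPKM of 1 in each library and their sum ran from 4.85 to 9.75. *Ptprc* and *Adgre1*, which define blood cells and macrophages, were at 0.0081 or below everywhere. *Itgam* and *Csf1r* were at 0.0758 or below and *Lyz2* at 0.959 or below. *Cd14* was at 3.06 to 8.24, highest in shMLL1 cells at day 5, and *Cd68* at 0.469 to 1.64. The sums of 4 endothelial and of 4 epithelial markers stayed at or below 1.81. What part the differences in adipocyte markers and *Thy1* have in the following results was not tested. As these are bulk libraries, fewer cells that express a gene and less RNA per cell cannot be told apart.

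The promoter sequences of 3 members are shown, and *Irf9*, which also varied widely, is not among them. *Stat2* is the only member whose RefSeq promoter window (GRCm38.p6, 250 bases before to 50 after the start) holds the ISRE letters GAAANNGAAA. *Irf1* holds the GAS letters TTCNNNGAA in the first of its 2 windows only, and that window is shown. *Irf7*, which changed most, holds neither. Both strands were searched. The ISRE letters are in 1131 of 32851 promoter windows of mouse genes (3.44%) and the GAS letters in 2726 (8.30%). All 9 members had a promoter window, with 11 windows in all. The bases before the start that lie outside annotated exons are given from 5′ to 3′ on the gene's strand, with the matched letters in capitals.
Stat2 (chr10:128270248-128270497, plus strand): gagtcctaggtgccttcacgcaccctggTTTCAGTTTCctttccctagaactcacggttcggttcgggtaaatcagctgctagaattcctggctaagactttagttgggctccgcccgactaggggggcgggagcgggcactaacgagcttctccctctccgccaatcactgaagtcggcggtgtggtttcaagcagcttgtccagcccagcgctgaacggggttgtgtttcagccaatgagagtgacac
Irf1 (chr11:53769764-53770013, plus strand): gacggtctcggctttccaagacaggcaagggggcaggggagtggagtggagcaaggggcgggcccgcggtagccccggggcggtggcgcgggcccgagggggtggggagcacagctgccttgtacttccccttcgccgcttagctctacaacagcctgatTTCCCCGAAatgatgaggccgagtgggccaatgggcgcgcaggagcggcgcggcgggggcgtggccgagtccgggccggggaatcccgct
Irf7 (chr7:141266482-141266674, minus strand): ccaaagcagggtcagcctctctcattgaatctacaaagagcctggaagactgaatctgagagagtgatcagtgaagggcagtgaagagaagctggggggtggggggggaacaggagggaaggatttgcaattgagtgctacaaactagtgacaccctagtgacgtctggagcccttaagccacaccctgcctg

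In *Stat2* the ISRE letters lie on the minus strand, at chr10:128270276-128270285, with their first base at position -222 from the start. In *Irf1* the GAS letters begin at position -90 (chr11:53769924-53769932). The GAS letters were also found in *Ifnar2*, as TTCCTGGAA at position -214, and in *Ifnar1*, as TTCACGGAA at position -5, where they span the start. No match was found in the windows of *Jak1*, *Tyk2*, *Irf3* or *Irf9*. A match describes the letters and not a bound factor, and a window without a match may have a site elsewhere.

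The 9 genes fell into members that held their level and members that did not. The highest RPKM of the 8 libraries was within 2 times the lowest for *Irf3* (1.47 times), *Tyk2* (1.76), *Ifnar1* (1.77) and *Jak1* (1.78). It was past 2 times for *Ifnar2* (3.35), *Irf1* (3.59), *Irf9* (12.6), *Stat2* (14.6) and *Irf7* (271). Among the 11513 genes whose highest RPKM was over 1, here called expressed genes, 52.7% were past 2 times, so 5 of 9 members is close to that share, and the median expressed gene had a ratio of 2.07. Without the shNFIB and shMLL1 libraries of day 5, the same 5 members were past 2 times, beside 46.4% of all expressed genes. The ratios of *Irf7*, *Irf9*, *Stat2* and *Irf1* were then 6.35, 3.11, 2.28 and 2.46. The 4 day 0 libraries alone left *Ifnar2*, *Irf7* and *Irf9* past 2 times, beside 19.9% of all expressed genes. The 4 day 5 libraries alone left *Stat2*, *Irf7* and *Irf9*, beside 21.3%.

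**Figure D1:**
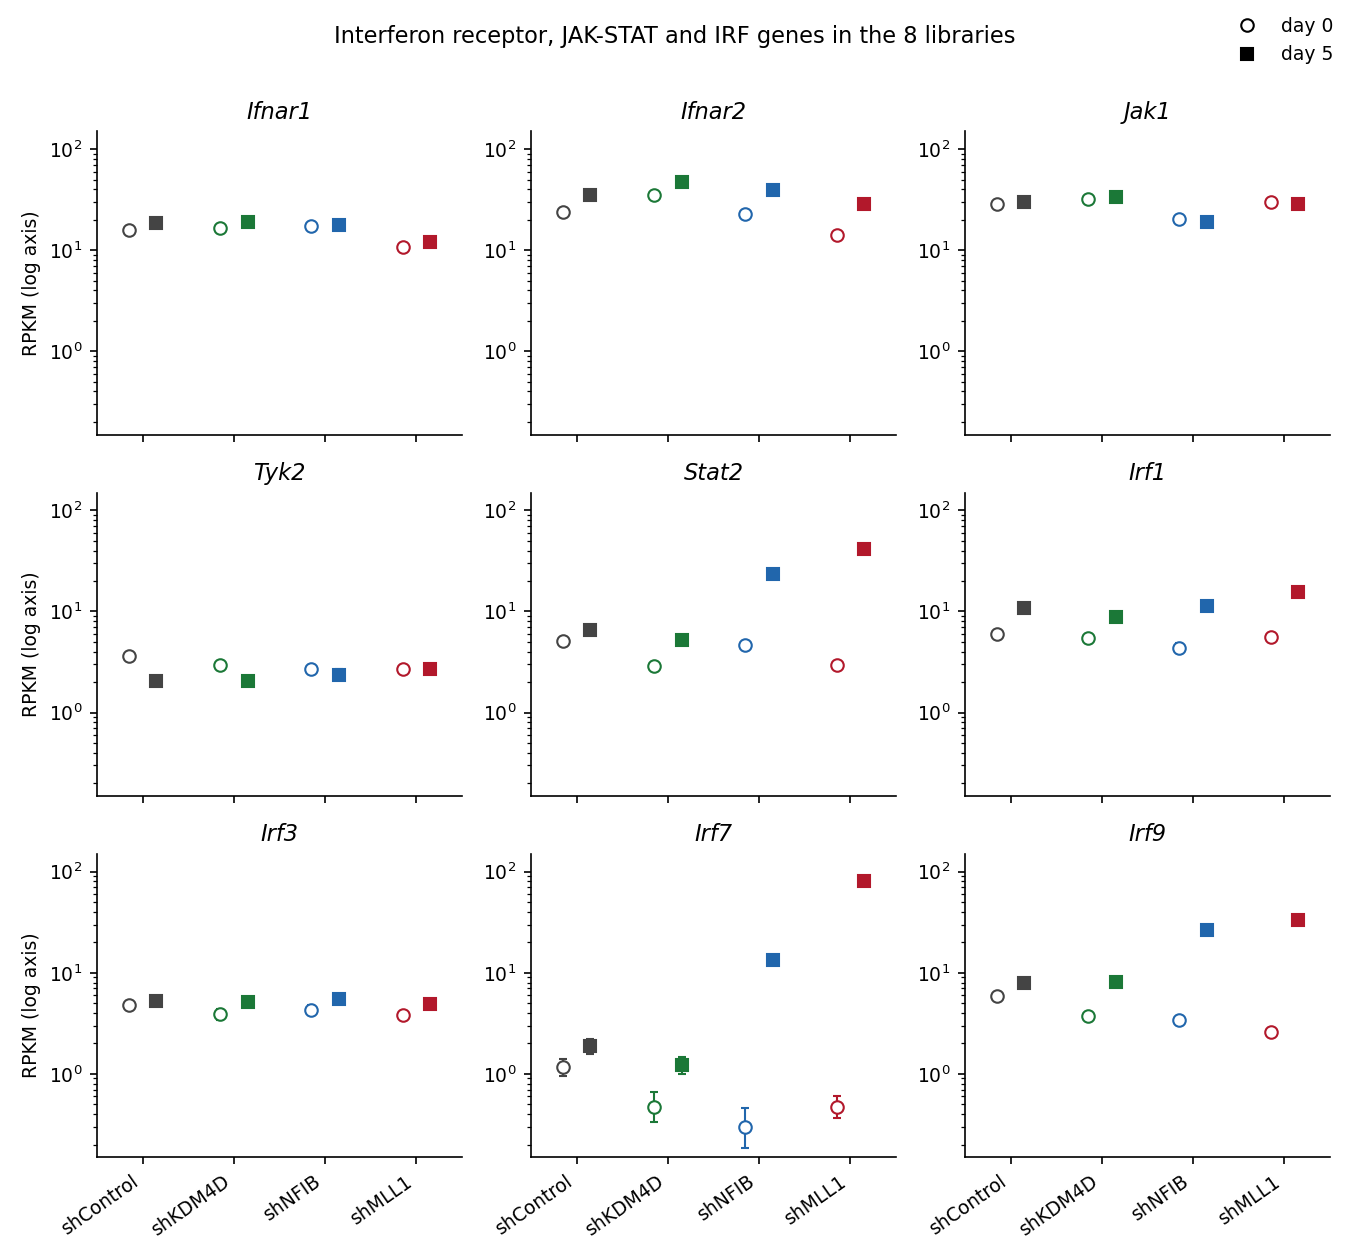
RPKM of the 9 genes (log axis, same scale in every panel) in the 4 lines at day 0 (open circles) and day 5 (filled squares), 1 library per point, with 95% counting intervals where they are larger than the symbol. *Stat2*, *Irf7* and *Irf9* stand highest in shNFIB and shMLL1 cells at day 5, while *Ifnar1*, *Jak1*, *Tyk2* and *Irf3* stay within a factor of 2.

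**Figure D2:**
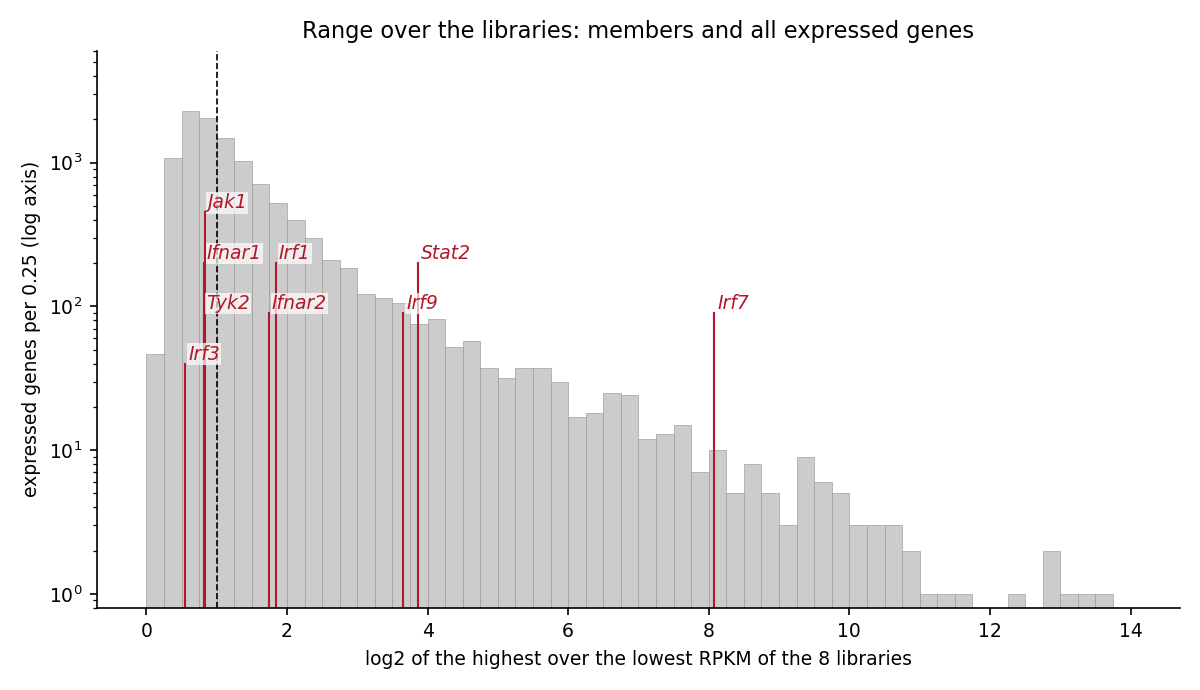
Number of expressed genes (log axis) by the log2 of their highest over lowest RPKM in the 8 libraries, in steps of 0.25; the 266 genes at 0 in a library are left out, the dashed line marks 2-fold, and red lines mark the 9 genes. *Irf3*, *Tyk2*, *Ifnar1* and *Jak1* lie left of the line and *Irf7* lies far to the right, at 271 times.

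*Ifnar1* (chr16:91485238-91507441), the receptor chain that carries TYK2, had RPKM values of 15.9 and 18.4 in shControl, 16.4 and 19.0 in shKDM4D, 17.5 and 17.9 in shNFIB, and 10.8 and 12.1 in shMLL1 cells at day 0 and day 5. The shMLL1 libraries were thus the lowest on both days. They stood below shControl cells by a log2 ratio of -0.56 before the hormones (-0.64 to -0.48) and of -0.60 after them (-0.68 to -0.52).

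*Ifnar2* (chr16:91372783-91405589), the chain that carries JAK1, had RPKM values of 23.8 and 35.2 in shControl, 35.3 and 46.9 in shKDM4D, 22.7 and 39.1 in shNFIB, and 14.02 and 28.8 in shMLL1 cells at day 0 and day 5. It was higher at day 5 than at day 0 in all 4 lines, with log2 ratios of 0.57, 0.41, 0.78 and 1.04 in that order. The shMLL1 change lay just past 2-fold, with an interval that spans it (0.95 to 1.12). The shKDM4D libraries had the highest *Ifnar2* on each day, 1.48 and 1.33 times the shControl level, and the shMLL1 libraries the lowest. In every library the RPKM of *Ifnar2* was above that of *Ifnar1*, from 1.30 times in shNFIB cells at day 0 to 2.47 times in shKDM4D cells at day 5. A transcript of another gene, *Gm21970*, shares 315 exon bases on the same strand with *Ifnar2*, and its RPKM was at most 0.357.

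*Jak1* (chr4:101152367-101265282), the kinase that serves many cytokine receptors besides this one, had RPKM values of 28.9 and 30.3 in shControl, 32.4 and 33.5 in shKDM4D, 20.4 and 18.9 in shNFIB, and 30.0 and 28.6 in shMLL1 cells. The shNFIB libraries stood below the rest on both days, and their log2 ratio to the control was -0.50 (-0.57 to -0.44) before and -0.68 (-0.76 to -0.61) after the hormones. *Gapdh* was also lower in shNFIB than in shControl cells at day 0 (log2 ratio -0.64), and divided by *Gapdh* the *Jak1* ratio of day 0 had the opposite sign. *Tyk2* (chr9:21104068-21131243) was at a lower level per kilobase than *Jak1* in every library, with RPKM values of 3.60 and 2.05 in shControl, 2.96 and 2.06 in shKDM4D, 2.68 and 2.37 in shNFIB, and 2.70 and 2.69 in shMLL1 cells. It was the only member lower at day 5 than at day 0 in shControl cells, with a log2 ratio of -0.81 (-1.02 to -0.61). The *Tyk2* change was -0.52 (-0.74 to -0.30) in shKDM4D cells, and in shNFIB and shMLL1 cells the interval included 0.

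*Stat2* (chr10:128270559-128292849), the STAT protein specific to this pathway, had RPKM values of 5.13 and 6.54 in shControl, 2.87 and 5.27 in shKDM4D, 4.64 and 23.3 in shNFIB, and 2.96 and 41.8 in shMLL1 cells. The 6 other libraries lay between 2.87 and 6.54, and the lower of the 2 high libraries, shNFIB at day 5, was 3.57 times the highest of them. From day 0 to day 5 *Stat2* rose 5.03-fold in shNFIB cells (log2 2.33, 2.19 to 2.47) and 14.1-fold in shMLL1 cells (3.82, 3.71 to 3.93). The log2 changes in shControl and shKDM4D cells were 0.35 (0.20 to 0.49) and 0.88 (0.69 to 1.07). At day 0, *Stat2* stood below shControl cells in shKDM4D cells (log2 ratio -0.84) and in shMLL1 cells (-0.79), and the interval of shNFIB cells included 0 (-0.31 to 0.02).

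*Irf9* (chr14:55603571-55610030), the DNA-binding subunit of ISGF3, had RPKM values of 5.85 and 7.91 in shControl, 3.74 and 8.16 in shKDM4D, 3.37 and 26.7 in shNFIB, and 2.62 and 33.0 in shMLL1 cells. All 3 knockdown lines were below shControl cells at day 0, by log2 ratios of -0.65, -0.80 and -1.16 in shKDM4D, shNFIB and shMLL1 cells. At day 5 shKDM4D cells were level with shControl cells (0.04, -0.09 to 0.18), and shNFIB and shMLL1 cells were 3.38 and 4.17 times above them. The change from day 0 to day 5 was 2.18-fold in shKDM4D, 7.92-fold in shNFIB and 12.6-fold in shMLL1 cells, against 1.35-fold in shControl cells. *Irf9* and *Stat2* stayed close in level, with an *Irf9* to *Stat2* ratio of RPKM between 0.727 and 1.55 in the 8 libraries. *Rnf31*, the next gene on the same strand, shares 123 exon bases with *Irf9* (2.28% of them) and had an RPKM of 1.61 to 4.72.

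*Irf1* (chr11:53770014-53778374), an early transcription factor of the response, had RPKM values of 5.996 and 10.8 in shControl, 5.41 and 8.89 in shKDM4D, 4.38 and 11.3 in shNFIB, and 5.55 and 15.7 in shMLL1 cells. It was higher at day 5 in all 4 lines, by 1.80-fold, 1.64-fold, 2.58-fold and 2.83-fold. At day 5 the level in shNFIB cells differed from shControl cells by less than the counting interval (log2 ratio 0.07, -0.08 to 0.21), unlike *Stat2* and *Irf9*. In shMLL1 cells the day 5 level was above shControl cells by 0.55 on that scale (0.43 to 0.66).

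*Irf3* (chr7:44997648-45002848), which is activated by phosphorylation and drives the interferon beta gene, varied least of the 9 genes. Its RPKM values were 4.78 and 5.25 in shControl, 3.87 and 5.19 in shKDM4D, 4.28 and 5.56 in shNFIB, and 3.78 and 4.91 in shMLL1 cells. At day 5 the intervals of all 3 knockdown ratios included 0, running on the log2 scale from -0.23 to 0.20 in shKDM4D, from -0.14 to 0.31 in shNFIB and from -0.29 to 0.10 in shMLL1 cells. At day 0 they lay below 0 in shKDM4D (-0.53 to -0.08) and shMLL1 cells (-0.53 to -0.15) and included 0 in shNFIB cells. From day 0 to day 5 *Irf3* rose by 0.42, 0.38 and 0.38 in shKDM4D, shNFIB and shMLL1 cells, with intervals above 0. In shControl cells that interval included 0. *Gapdh* rose by 0.56 in shNFIB cells, and divided by it the *Irf3* change in those cells had the opposite sign.

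*Irf7* (chr7:141262706-141266481), the factor needed for most interferon alpha genes, was the most variable member. Its RPKM values were 1.16 and 1.89 in shControl, 0.474 and 1.21 in shKDM4D, 0.298 and 13.3 in shNFIB, and 0.471 and 80.6 in shMLL1 cells, from 117 and 138, 35 and 99, 21 and 794, and 68 and 11607 reads. At day 0 the 3 knockdown libraries lay below shControl cells, by a log2 ratio of -1.29 with shKDM4D (-1.88 to -0.74), -1.96 with shNFIB (-2.71 to -1.29) and -1.30 with shMLL1 (-1.76 to -0.86). The 95% intervals of these 3 day 0 levels overlap each other, from 0.184 to 0.660 RPKM in all, and none reaches the shControl interval of 0.962 to 1.39.

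By day 5 the order had turned in 2 of the lines. *Irf7* had risen 44.5-fold in shNFIB cells (log2 5.48, 4.85 to 6.18), 171-fold in shMLL1 cells (7.42, 7.07 to 7.78) and 2.56-fold in shKDM4D cells (1.35, 0.78 to 1.95), with 1.63-fold in shControl cells (0.70, 0.34 to 1.07). The shNFIB level was then 7.02 times and the shMLL1 level 42.6 times that of shControl cells. The level in shMLL1 cells was 6.07 times that in shNFIB cells, a wider gap than the 1.79 times of *Stat2*, the 1.39 times of *Irf1* or the 1.24 times of *Irf9*. In shKDM4D cells *Irf7* stayed below shControl cells, with a log2 ratio of -0.64 (-1.03 to -0.26).

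Per kilobase, *Irf7* was the lowest of the 9 genes in 6 libraries, the sixth in shNFIB cells at day 5 and the highest in shMLL1 cells at day 5. The ratio of *Irf7* to *Irf3* went from 0.243 to 0.360 in shControl cells, from 0.0696 to 2.39 in shNFIB cells and from 0.125 to 16.4 in shMLL1 cells. The annotated exons of *Irf7* together cover all 3776 bases of the gene, so its RPKM is taken per more bases than a spliced transcript holds, in every library alike. *Phrf1*, on the opposite strand, shares 45 of these bases and had an RPKM of 7.67 to 11.3. Whether reads were counted by strand is not given in the sources used here.

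Counted over the day 5 to day 0 comparisons, no member passed 2-fold in shControl cells, where 13.0% of all expressed genes rose and 8.56% fell by more than 2-fold. In shKDM4D cells 2 members rose (*Irf7* and *Irf9*) and none fell, against 12.8% and 8.44% of all expressed genes. The shKDM4D call of *Irf7* was lost under quantile normalization, and both were lost when 1 was added to every RPKM. Division by *Gapdh*, under which 23.5% of all expressed genes rose in shKDM4D cells, added *Stat2* and *Irf1*. In shNFIB cells 4 rose (*Stat2*, *Irf1*, *Irf7* and *Irf9*) and none fell, against 12.6% and 4.96%. In shMLL1 cells 5 rose (the same 4 and *Ifnar2*) and none fell, against 20.4% and 6.89%. The median log2 change of the 9 genes was 0.35, 0.42, 0.78 and 1.04 in the 4 lines, and that of all expressed genes 0.03, 0.03, 0.09 and 0.17.

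**Figure D3:**
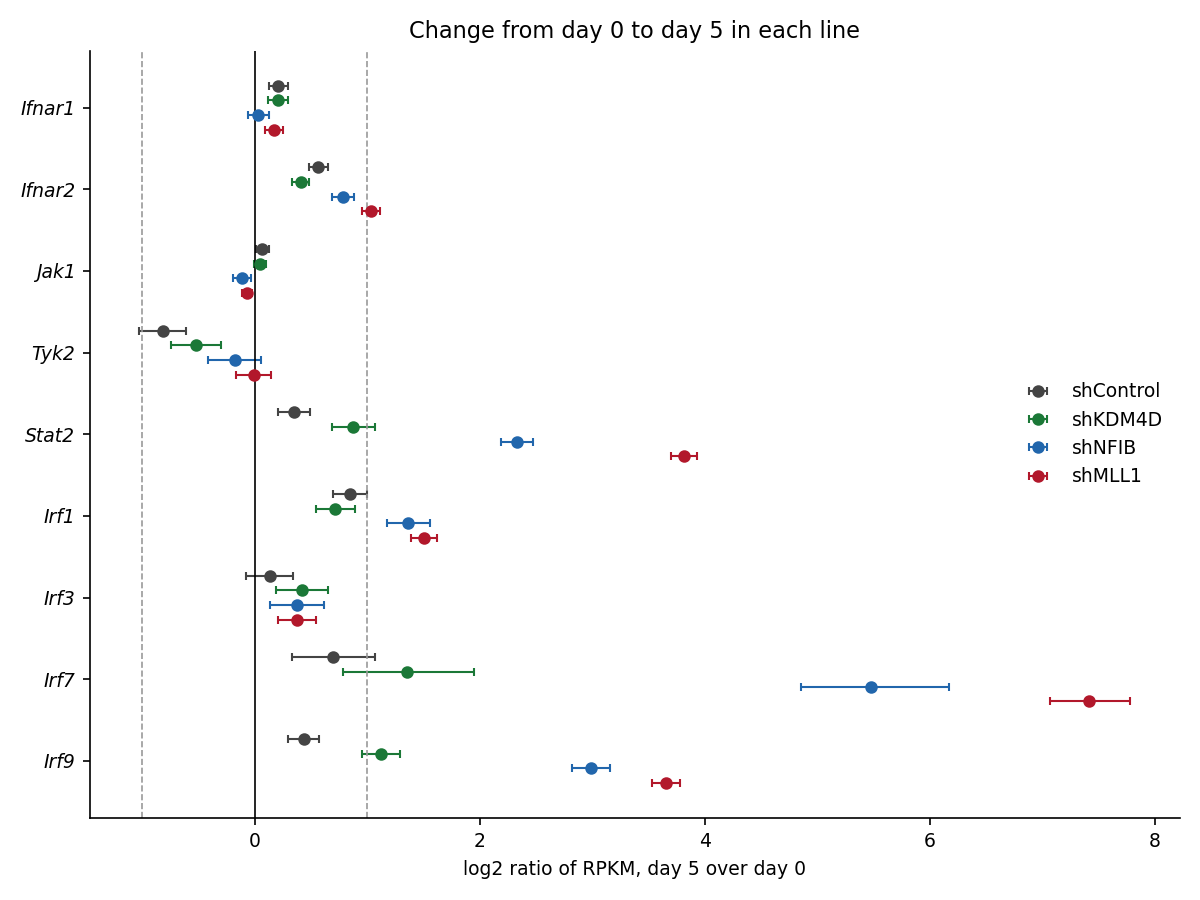
Log2 ratio of RPKM at day 5 over day 0 for the 9 genes in the 4 lines, 1 library per day, with 95% counting intervals; dashed lines mark 2-fold. *Stat2*, *Irf7* and *Irf9* spread from shControl, nearest to 0, to shMLL1, farthest from it, and *Irf7* reaches 7.42.

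The changes over the 5 days differed from that of shControl cells by more than the counting interval in *Stat2*, *Irf9* and *Ifnar2* in all 3 knockdown lines. The difference of the log2 changes was 0.53, 1.98 and 3.47 for *Stat2* and 0.69, 2.55 and 3.22 for *Irf9*, in shKDM4D, shNFIB and shMLL1 cells. For *Irf7* it was 4.78 (4.06 to 5.50) in shNFIB and 6.72 (6.22 to 7.21) in shMLL1 cells, and the interval in shKDM4D cells included 0 (-0.01 to 1.31). For *Ifnar2* the differences were smaller, at -0.16, 0.21 and 0.47 in the same order. *Tyk2* differed in shNFIB (0.64) and shMLL1 cells (0.80), and *Irf1* differed in the same lines (0.52 and 0.66), whereas the *Irf3* interval included 0 in all 3 lines. Divided by *Gapdh*, the *Ifnar2* differences in shKDM4D and shNFIB cells and the *Irf1* difference in shNFIB cells had the opposite sign. *Gapdh* itself changed from day 0 to day 5 by log2 -0.03 in shControl, -0.47 in shKDM4D and 0.56 in shNFIB cells. The comparisons share the shControl libraries and are not independent of each other.

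Against shControl cells at day 0, no member was more than 2-fold higher in any knockdown line. In shKDM4D cells only *Irf7* was more than 2-fold lower, against 4.26% of all expressed genes lower and 1.98% higher. In shNFIB cells it was again *Irf7* alone, against 6.05% lower and 2.95% higher. In shMLL1 cells *Irf7* and *Irf9* were lower, against 7.43% lower and 1.67% higher. With *Irf9* in shMLL1 cells the interval just clears 2-fold (-1.32 to -1.002). Both shMLL1 calls were lost under quantile normalization, and all 4 of these calls were lost when 1 was added to every RPKM.

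At day 5, no member passed 2-fold in shKDM4D cells, where 1.88% of all expressed genes were higher and 4.57% lower than in shControl cells. *Stat2*, *Irf7* and *Irf9* were more than 2-fold higher in shNFIB cells, where 5.54% of all expressed genes were higher and 5.67% lower. The same 3 genes were more than 2-fold higher in shMLL1 cells, against 5.25% of all expressed genes higher and 4.02% lower. No member was more than 2-fold lower in either line. The median log2 ratio of the 9 genes was 0.15 in shNFIB and 0.39 in shMLL1 cells, beside 0.09 and 0.07 over all expressed genes. The receptor chains, the kinases and *Irf3* lay between -0.68 and 0.39 in both lines.

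**Figure D4:**
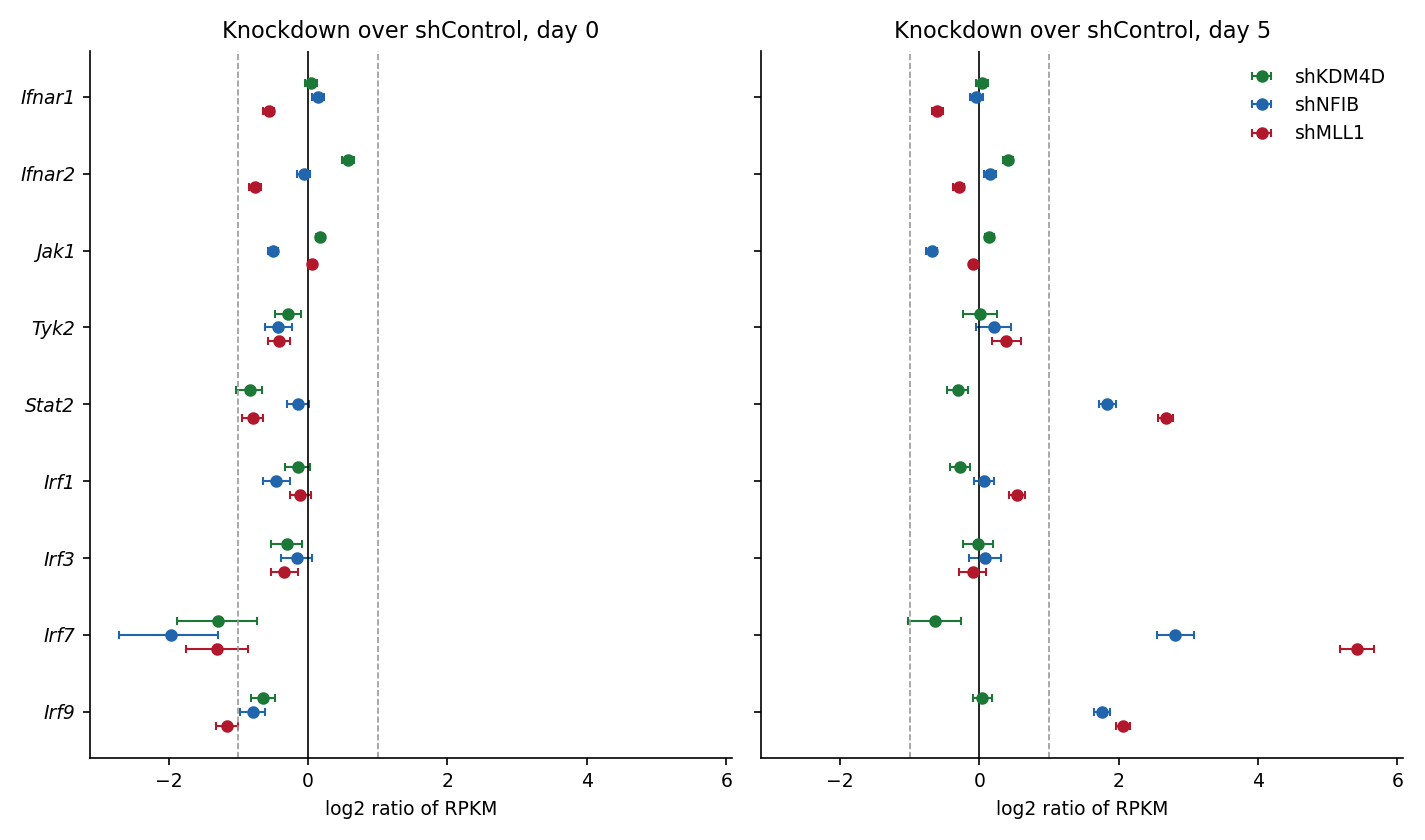
Log2 ratio of RPKM in each knockdown line over shControl cells at day 0 (left) and day 5 (right) for the 9 genes, with 95% counting intervals; dashed lines mark 2-fold. *Irf7* and *Irf9* lie left of 0 in all 3 lines at day 0, and far right of it in shNFIB and shMLL1 cells at day 5.

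The rest of the pathway was read from lists of its known genes. Of the 21 interferon genes listed, 17 were at 0 in all 8 libraries and none passed an RPKM of 1. *Ifnb1*, the interferon beta gene, had 3 reads in shMLL1 cells at day 5 (RPKM 0.105), 1 read in shMLL1 cells at day 0 and none in the other 6 libraries, including shNFIB cells at day 5, where the floor of 3 reads is an RPKM of 0.252 and the exact upper limit of 0 reads is 0.310. *Ifnz* had 1 to 3 reads in each of the 6 knockdown libraries and none in shControl cells. *Ifnlr1*, the receptor chain of type III interferon, was at 0 throughout. The chains of the interferon gamma receptor were present, and *Ifngr1* was the only one of 4 expressed genes in the list of other receptors and kinases to pass 2-fold. It rose from 14.3 to 34.0 in shControl cells and was at 15.1 in shKDM4D cells at day 5.

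Of 5 other IRF genes only *Irf2* was expressed, at 3.497 to 5.85, and it passed 2-fold nowhere. *Irf4* and *Irf8*, known from blood cells, were at 0.023 or below and at 0. Among 8 negative regulators the widest changes were those of *Usp18*, which removes ISG15 from proteins and blocks the receptor. Its RPKM was 1.009 and 1.11 in shControl, 0.183 and 0.630 in shKDM4D, 0.0576 and 17.0 in shNFIB, and 0.357 and 66.7 in shMLL1 cells. *Usp18* therefore took the order of *Irf7*, low in the 3 knockdown lines at day 0 and highest in shMLL1 cells at day 5. The only other negative regulators past 2-fold were *Ptpn6*, which went from 0.210 to 0.879 in shNFIB cells, and *Socs1*, which went from 0.774 to 1.74 in shMLL1 cells. The *Ptpn6* rise started from a low level of 11 reads, since shControl cells were at 1.31 at day 0.

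Of the 8 adaptors and kinases that lead from nucleic acid sensing to IRF3 and IRF7, none passed 2-fold from day 0 to day 5 in shControl, shKDM4D or shNFIB cells. In these lines 12.6% to 13.0% of all expressed genes rose and 4.96% to 8.56% fell. Between lines only *Tmem173*, which encodes STING, passed 2-fold. It was at 0.442 in shNFIB against 1.39 in shControl cells at day 0, where 6.05% of all expressed genes were lower. At day 5 it was at 4.22 in shMLL1 against 0.832 in shControl cells, where 5.25% were higher. In shMLL1 cells *Tmem173* went from 1.61 to 4.22, *Ikbke* from 0.810 to 2.32 and *Ticam1* from 4.69 to 10.8, while *Traf3* fell from 10.1 to 4.43. That is 3 of 8 up and 1 down, against 20.4% and 6.89% of all expressed genes. *Mavs* and *Tbk1* stayed between 6.94 and 10.9 and between 13.9 and 21.4 in all 8 libraries.

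The list of interferon-stimulated target genes held 31 genes, of which 29 passed an RPKM of 1 somewhere and 14 did so in the shControl library of day 0. For 11 of these 29 the level passed 1 only in the shNFIB or shMLL1 library of day 5, which makes a difference there part of the choice, so counts are given over all 31. From day 0 to day 5, 16 rose more than 2-fold and 2 fell in shControl cells, 22 rose and 2 fell with shKDM4D, 28 rose with shNFIB and 30 rose with shMLL1. At day 0, 18, 17 and 15 of the 31 were more than 2-fold below shControl cells in shKDM4D, shNFIB and shMLL1 cells, and 1, 1 and 3 were above. Of the 21492 genes, 12.2%, 13.1% and 13.3% were below in that order, and 8.22%, 10.0% and 11.1% were above. At day 5, 10 were below and none above in shKDM4D cells, 26 above and 1 below with shNFIB, and 30 above and 1 below with shMLL1. Of the 21492 genes, 13.8% were below and 9.15% above with shKDM4D at day 5. With shNFIB 13.8% were above and 13.7% below, and with shMLL1 17.8% were above and 10.5% below. Some of the target calls rest on very few reads. Of the 10 targets below shControl cells in shKDM4D cells at day 5, 5 had at most 3 reads in either library, as had both targets that fell in shControl cells and the 1 target below in each of shNFIB and shMLL1 cells at day 5. Counting only calls whose interval was clear of 0, 13 rose in shControl cells and none fell, 20 rose and 1 fell with shKDM4D, 26 rose with shNFIB and 30 with shMLL1. On that count 12, 10 and 13 were below shControl cells at day 0 in shKDM4D, shNFIB and shMLL1 cells and 1, 0 and 0 above, and at day 5 there were 5 below with shKDM4D, 26 above with shNFIB and 30 above with shMLL1, with none in the other direction. Calls with intervals clear of 0 were not counted over all genes. The shMLL1 library of day 5 was the highest of the 8 for 30 of the 31 targets (96.8%) and for 16.9% of all expressed genes. The members shared that order in part. The shMLL1 and shNFIB libraries of day 5 were the 2 highest for *Stat2*, *Irf1*, *Irf7* and *Irf9*. They were so for 28 of the 31 targets and for 9.37% of all expressed genes. In these orders all 31 targets were counted, 29 of them expressed, whereas both shares of all genes cover expressed genes only.

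**Figure D5:**
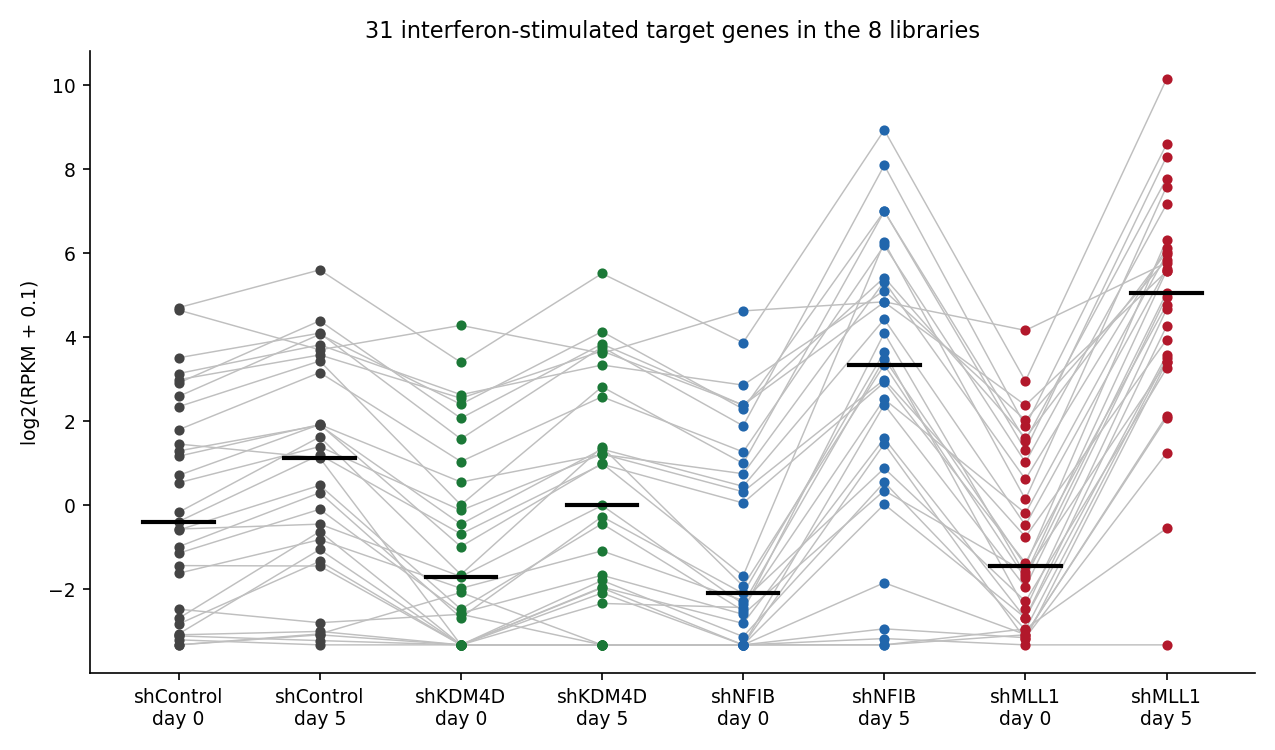
Level of the 31 interferon-stimulated target genes in each library as log2(RPKM + 0.1), 1 point per gene, with grey lines joining the values of a gene and black bars at the median. The median RPKM was 0.665 and 2.09 in shControl, 0.209 and 0.898 in shKDM4D, 0.133 and 10.1 in shNFIB, and 0.269 and 33.3 in shMLL1 cells at day 0 and day 5.

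The targets with the highest levels belonged to the IFIT family, whose proteins bind foreign RNA. *Ifit1* had RPKM values of 11.3 and 17.0 in shControl, 2.89 and 13.5 in shKDM4D, 3.61 and 273 in shNFIB, and 3.59 and 386 in shMLL1 cells. *Ifit3* reached 489 with shNFIB and 1133 with shMLL1 at day 5, and at most 48.5 in the other 6 libraries, and *Ifit3b* reached 128 and 314, against at most 17.5. *Ifit2* moved less, with 25.0 and 12.9 in shControl, 19.4 and 12.2 in shKDM4D, 24.6 and 28.6 in shNFIB, and 17.8 and 54.6 in shMLL1 cells, so that shNFIB cells at day 5 were only 1.15 times above the highest of the other 6 libraries. *Isg15*, the ubiquitin-like modifier, had 1.54 and 3.70 in shControl, 0.406 and 1.90 in shKDM4D, 0.213 and 76.6 in shNFIB, and 1.00 and 192 in shMLL1 cells. The low *Isg15* values rest on few reads, 6 in shKDM4D and 3 in shNFIB cells at day 0. *Bst2*, which tethers budding viruses to the cell, had 4.99 and 10.7, 0.907 and 6.97, 1.90 and 127, and 2.81 and 220 in the same order.

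The 2'-5'-oligoadenylate synthetases, which activate RNase L, set shMLL1 apart from shNFIB cells more than the IFIT genes did. *Oas2* had 0.270 and 0.267 in shControl, 0 and 0.156 in shKDM4D, 0 and 5.16 in shNFIB, and 0.159 and 31.1 in shMLL1 cells. At day 5 the level in shMLL1 cells was 6.02 times that in shNFIB cells for *Oas2*, 5.43 times for *Oas1b*, 11.1 times for *Oas1a*, 20.8 times for *Oas1g* and 23.1 times for *Oas3*, and 2.81 times for *Oasl2*. The corresponding ratio was 1.42 for *Ifit1*, 2.32 for *Ifit3* and 2.51 for *Isg15*. *Rsad2*, which encodes viperin, was at 4.30 in shMLL1 cells at day 5, at 0 in shNFIB cells and at most 0.0181 elsewhere, and *Cmpk2*, its neighbour, was at 2.27, 0.0303 and at most 0.0249.

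The same 2 libraries were highest for the other targets named by the counting rule. The cytosolic RNA sensors *Ddx58* (RIG-I), *Ifih1* (MDA5) and *Dhx58* (LGP2) had 28.5, 1.18 and 10.1 with shNFIB at day 5 and 47.3, 10.5 and 33.3 with shMLL1, against at most 12.7, 0.836 and 2.99 in the other 6 libraries. The immunoproteasome and peptide transport genes *Psmb8*, *Psmb9* and *Tap1* had 2.65, 1.36 and 7.49 in shNFIB and 10.5, 11.2 and 27.2 in shMLL1 cells, against at most 0.548, 0.297 and 2.20. The GTPase genes *Mx1*, *Mx2*, *Gbp2* and *Gbp3* had 2.92, 12.4, 42.8 and 72.7 in shNFIB and 11.8, 25.2, 65.1 and 143 in shMLL1 cells, against at most 0.383, 1.13, 20.9 and 8.84. *Ifi35*, *Ifi44*, *Xaf1* and *Parp14* reached 34.4, 11.1, 21.4 and 7.86 with shNFIB and 57.4, 79.8, 49.5 and 15.3 with shMLL1, against at most 14.02, 0.898, 3.64 and 2.54. *Trim25* was at 0.0180 or below and *Oasl1* at 0.583 or below in all 8 libraries.

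The genes most like each varying member were ranked by Pearson's r of log2(RPKM + 0.1) over the 8 libraries. For *Irf7* they were *Ly6c2*, *Psmb10*, *Ifi44*, *Mndal* and *Oas1b* (r from 0.993 to 0.996), for *Stat2* they were *Xaf1*, *Dtx3l*, *Parp9*, *Parp12* and *Ifit3* (0.988 to 0.993), and for *Irf9* they were *Ifit3*, *Irgm2*, *Ddx58*, *Mx2* and *Coa4* (0.988 to 0.992). *Irf1* was most like *Rhov*, *Kctd1*, *Apol9a*, *Rsph3a* and *Hist1h2bc* (0.983 to 0.990), and *Ifnar2* was most like *Phf21a*, *Faf2*, *Mfap1b*, *Col5a1* and *Sec16b* (0.974 to 0.989). These are the highest 5 of 11513 expressed genes over 8 points, so a high r is built into the choice. For the first 3 members r was lower without the shNFIB and shMLL1 libraries of day 5. In the 6 libraries without them r for these pairs was 0.921 to 0.973 for *Irf7*, 0.918 to 0.979 for *Stat2* and 0.9402 to 0.977 for *Irf9*. Between members, r over the 8 libraries was 0.97 for *Stat2* and *Irf7*, 0.96 for *Stat2* and *Irf9*, 0.96 for *Irf7* and *Irf9* and 0.75 for *Ifnar1* and *Ifnar2*. Without the same 2 libraries it was 0.73, 0.83, 0.90 and 0.86, and the highest values were then those of *Irf3* with *Irf9* (0.95) and with *Stat2* (0.95), which had been 0.77 and 0.65 over the 8 libraries. The 8 points are 1 library each, and the values of a library share its depth and scale.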

How the data were processed

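RNA-seq was done on 8 C3H10T1/2 samples. Per the study's methods, the authors mapped the reads to GRCm38 (mm10) in CLC Genomics Workbench 11.0.1, where a mismatch cost 2, an insertion or deletion 3, and both the length and the similarity fraction were 0.8, and deposited RPKM values per gene, which correct for exon length and mapped reads. The gene annotation is not given in the sources used here, and the labels and methods name different SMARTer kits. With GENCODE M21 exon lengths, 96.2% to 96.6% of the values below 1000 reads were whole reads to within 0.02, which gave the depth and the intervals. Each library's value of 3 reads served as the floor.

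Ratios were taken between RPKM values without a pseudocount and called past 2-fold. A gene counted as expressed where its highest RPKM was over 1. Intervals of differences between changes use a normal approximation. Correlations use log2(RPKM + 0.1), and the 5 most correlated genes are named for each member past 2 times over the libraries. List genes are named where they pass 2-fold in at least 5 of the 10 comparisons, beside *Isg15*, *Ifit1*, *Oas2* and *Bst2*. Some list genes are not reported here. The few others named were chosen after their values were seen. The members and lists were chosen with earlier results of these data known. Python 3.11.15, pandas 2.3.3, scipy 1.17.1 and matplotlib 3.10.9 were used, and the scripts were tested on simulated data. Alternatives were division by *Gapdh*, scaling by the median of ratios, quantile normalization, adding 0.1 or 1 to each RPKM, and filtering at 2 or not at all. Counts of targets by the reads behind them were added after seeing the data.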

Additional observations from a re-analysis of the deposited data

Results flagged for a closer look

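These values stand out because a member moved in opposite directions in 2 conditions. Each rests on 1 library per condition, and the differences were not tested. Among the 27 pairs of a member and a knockdown line, 7 were on opposite sides of shControl cells at day 0 and day 5 with both counting intervals clear of 0. *Irf7* was below shControl cells at day 0 and above them at day 5 in shNFIB and shMLL1 cells, and its log2 ratio to shControl cells moved by 4.78 and 6.72 between the days. *Irf9* did the same in both lines, with moves of 2.55 and 3.22. *Stat2* crossed in shMLL1 cells (3.47) and *Tyk2* too (0.805). *Jak1* crossed the other way in shMLL1 cells by a small amount (-0.137), having gone down from day 0 to day 5 where shControl cells went up, and its change in shNFIB cells differed from that of shControl cells by -0.179 in the same sense. All of these differences kept their sign under the scalings and pseudocounts tried, but divided by *Gapdh* the *Jak1* level in shMLL1 cells was below that of shControl cells on both days (log2 ratios -0.16 and -0.44).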

How the results depend on the processing

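No replicate block was fitted, since the labels carry no replicate numbers, and the 4 lines, which differ in their knockdown, were not taken as replicates of the days. Adding 1 to every RPKM left 0 members past 2-fold from day 0 to day 5 in shKDM4D cells and 0 in each of the 3 knockdown comparisons at day 0. Quantile normalization left 1 member in the first of these (*Irf9*) and 0 in the comparison of shMLL1 with shControl cells at day 0. Division by *Gapdh* gave 4 members from day 0 to day 5 in shKDM4D cells, 3 in shKDM4D against shControl cells at day 0, and 8 members whose highest RPKM was past 2 times the lowest. That last count was 3 in the day 0 libraries and 3 in the day 5 libraries alone, as fewer libraries enter. It was 5 after leaving out any 1 of the 8 libraries. All other counts of members kept within 1.5 times, and the filters and a pseudocount of 0.1 moved none. Of 21 member ratios past 2-fold, *Gapdh* lost 2 and gained 5, quantile normalization lost 4, adding 1 lost 7 and the median of ratios lost 1. The *Ifnar2* change in shMLL1 cells fell below 2-fold under all 4. No ratio past 2-fold changed sign. Among smaller ratios with intervals clear of 0, the sign turned for 6 by *Gapdh* and for 1 by the median of ratios. Of the 27 differences of day changes from shControl cells, 19 moved outside their counting interval by *Gapdh*. Quantile normalization and the median of ratios moved 3 each, and adding 1 moved 5. *Stat2*, *Irf7* and *Irf9* at day 5 in shNFIB and shMLL1 cells stayed past 2-fold under every alternative. From day 0 to day 5 in shMLL1 cells the median log2 change of all expressed genes was 0.17, -0.04 by the median of ratios and -0.10 by quantiles, and 74.7%, 60.3% and 52.8% of the called genes were higher. In shNFIB cells that share was 71.8%, 56.2% by quantiles and 29.4% by *Gapdh* (median -0.48). By *Gapdh* it also went from 60.2% to 84.6% in shKDM4D cells (median 0.50), and, against shControl cells, from 31.8% to 10.7% for shKDM4D (-0.40) and from 32.8% to 86.8% for shNFIB (0.67) at day 0, and from 56.6% to 31.5% for shMLL1 at day 5 (-0.29). For shMLL1 at day 0 it went from 18.3% to 28.7% by quantiles. Over the 21492 genes above 0 in a library, 19.9% to 31.2% rose from day 0 to day 5 in the 4 lines. Among the 11513 expressed genes 12.6% to 20.4% did, and 6.15% to 11.6% did with 1 added. At day 0, *Irf7* in shNFIB cells rests on 21 reads.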
